A study of Mus musculus with 6 samples.

Results

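The lysosome and its proton pump were followed through 47 named genes in RNA from control and STING knockout fibroblasts, taken by symbol from a fixed list that was drawn up with earlier results of these data known. They comprise 6 transcriptional and nutrient-sensing regulators, 5 membrane proteins, 9 proteases, 8 glycan hydrolases, 6 genes of lipid handling, and 13 genes of the vacuolar H+-ATPase (V-ATPase). All 47 were among the 27507 genes of the deposited table, and 45 passed the minimum used for testing, a normalized count of at least 10 in at least 3 samples. The samples are poly(A) RNA libraries of L929, a mouse connective-tissue fibroblast line, with 3 control libraries whose genotype label is WT and 3 labelled STING KO. The labels name no treatment, so both groups are taken as untreated as far as the labels go. How the knockout was made, and whether it is 1 clone, is not given in the sources used here. The labels do not say whether replicates came from separate cultures, and a p-value here therefore reflects only how these libraries vary, perhaps for technical reasons.

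The V-ATPase pumps protons into the lysosome. Its V1 sector hydrolyses ATP in the cytosol and its V0 sector carries protons through the membrane, while accessory subunits help to assemble it. The acid lumen activates cathepsins and the glycosidases and lipases that break down cargo, and inherited loss of many of these enzymes causes lysosomal storage disease. TFEB, TFE3 and MITF are related transcription factors that bind E-box sequences in the promoters of lysosomal genes. RagC, RagD and folliculin control their release from the lysosomal surface according to nutrient supply. STING, an endoplasmic reticulum adaptor that responds to cyclic dinucleotides, is sent to lysosomes for degradation after it is activated and is also known to conduct protons, which is the background for asking how these genes stood in its absence.

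The targeted gene was checked first. Sting1, listed under its older symbol Tmem173, had normalized counts of 329, 313 and 311 in control, against 82.1, 80.6 and 93.4 after knockout. The groups did not overlap, and 26.9% of the control level was left (log2 fold change, STING KO relative to control, -1.90, SE 0.09, limma adjusted p = 9.72e-06). Totals ran from 14382072 to 14526606 normalized counts per library. All 9 fibroblast markers passed the minimum, while none of 5 melanocyte markers did. Of the other lists, 7 of 12 macrophage and leukocyte, 8 of 10 hepatocyte and 2 of 6 osteoclast markers passed. The 10 hepatocyte markers, with Alb foremost, were each highest in control replicate 3 among the controls and in STING KO replicate 1 among the knockouts. Their summed level was 206 to 4626 normalized counts in the control libraries and 234 to 4332 in the STING KO libraries, so results are also given without that pair. Where the hepatocyte transcripts came from was not tested. In RNA from a whole culture, fewer cells of a type and less RNA per cell cannot be told apart.

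Promoters of the members are shown because their E-boxes are what the TFEB family binds. RefSeq promoter sequences (GRCm38.p6, from 250 bases before to 50 after a start site) were matched by symbol for 40 of the 47 members, in 49 windows. The E-box CACGTG was in 14 of the 49 windows (28.6%), against 7.15% of all 32851 windows. The longer TCACGTGA, which contains the E-box and forms the core of the element described for lysosomal genes, was in 7 of 49 (14.3%), against 0.97%. Each reads the same on both strands. A match describes letters and does not show a site in use. In the stretches below, in capitals, are the E-boxes and, where present, the longer core. They are the Lamp1 stretch with its 4 E-boxes, a pair in Atp6v0b, the core of Atp6v0d1 and Atp6v1a, and the single E-box of Glb1.
Lamp1: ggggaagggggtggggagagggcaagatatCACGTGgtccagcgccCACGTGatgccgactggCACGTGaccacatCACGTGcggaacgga
Atp6v0b: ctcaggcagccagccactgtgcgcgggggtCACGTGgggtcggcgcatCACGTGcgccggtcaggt
Atp6v0d1: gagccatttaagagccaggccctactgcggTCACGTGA
Atp6v1a: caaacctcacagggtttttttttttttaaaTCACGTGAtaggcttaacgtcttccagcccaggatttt
Glb1: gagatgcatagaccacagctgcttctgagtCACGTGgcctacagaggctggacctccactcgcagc
The Lamp1 stretch lies at chr8:13159070-13159160 on the plus strand, with its E-boxes starting between 61 and 15 bases before the start site. Glb1 lies at chr9:114401000-114401065 on the plus strand, with its E-box 48 bases before the start. The others are on the minus strand. Atp6v0b lies at chr4:117887330-117887395 with E-boxes 36 and 18 bases before the start, and Atp6v1a at chr16:44139354-44139421 with its core 132 bases before it. The core of Atp6v0d1, at chr8:105566061-105566098, spans the start site itself. The core is also present in Atp6v0e, Ctsa, Ctsd, Gla and Mcoln1, and the shorter E-box in Ctsl, Gaa, Naglu and Rragc.

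No member was called in STING KO. Of the 45 tested, 0 were called higher and 0 lower by limma (adjusted p at or under 0.05 after Benjamini-Hochberg correction over 12408 genes). The background was 0.258% of all genes called, 32 genes that were all lower. There were 21 calls without control replicate 1 and 12 calls without the pair highest in hepatocyte markers. The smallest adjusted p of a member was 0.738, 2 members had an unadjusted p at or under 0.05 (Atp6v1e1 and Flcn, 2 of 45 against 6.37% of all genes), and limma-voom also called 0. The authors' deposited table, which gives an adjusted p for 46 members, has none at or under 0.05, with 1 as its smallest value and 2 at an unadjusted p at or under 0.05.

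The 45 values were close to no difference. In STING KO, 25 members had a positive and 20 a negative log2 fold change, from -0.19 to 0.20, with a median of 0.01 against 0.00 over all genes tested. For 44 of the 45 (97.8%), the 95% interval of the fold change lay wholly within 1.5-fold in either direction. The same held for 10599 (85.4%) of all genes tested, which were not matched to the members in abundance. All 45 lay within 2-fold. The exception at 1.5-fold was Rragd, the RagD GTPase and the least abundant of those tested, whose interval ran from 0.665 to 1.28 times the control level. The 47 members together made up 0.740%, 0.764% and 0.738% of all normalized counts in the control libraries and 0.751%, 0.751% and 0.770% in the STING KO libraries, ranges that overlap. The groups did not overlap for 3 members, Naglu higher and Atp6v1b2 and Gla lower, which is 6.67% of those tested against 12.1% of all genes (5.76% higher and 6.32% lower).

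**Figure D1:**
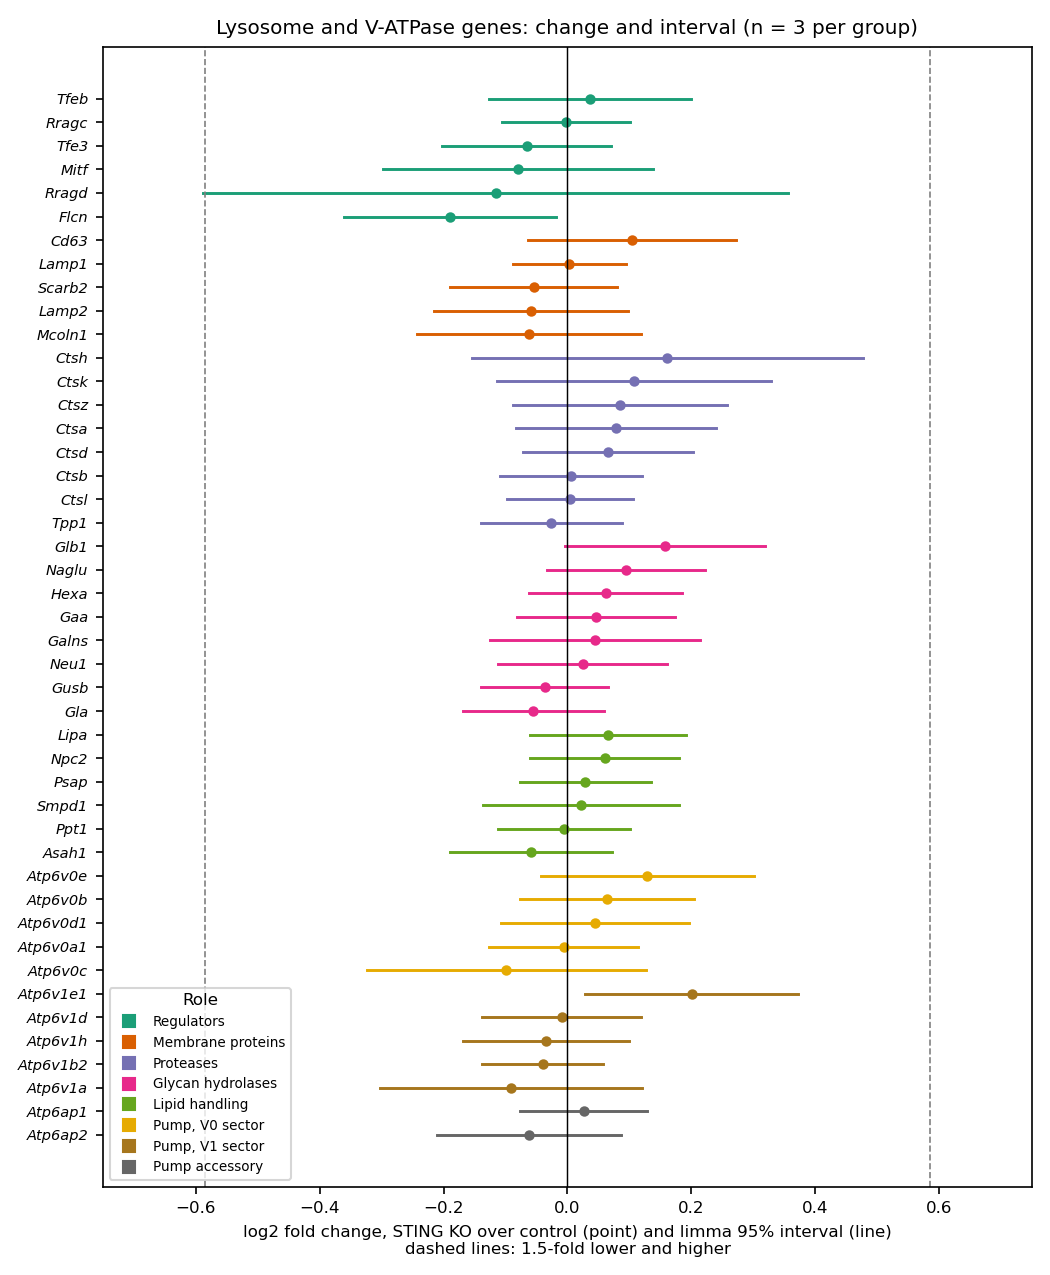
Log2 fold change, STING KO relative to control (horizontal axis) for the 45 tested lysosome and V-ATPase genes, grouped by role, with points for the estimate, lines for its 95% limma interval and dashed lines at 1.5-fold. Only Rragd has a bar that reaches past a 1.5-fold change, and the points range from -0.19 to 0.20.

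Among the regulators, Flcn, which encodes the folliculin protein that acts on RagC and RagD, gave the lowest value of any member. Its normalized counts were 873, 829 and 753 in control, against 773, 673 and 706 after knockout. STING KO replicate 1 lay above the lowest control, so the groups overlapped. The control mean was 818 ± 60.5 (SD, n = 3) and the STING KO mean 717 ± 51.0 (SD, n = 3), or 87.7% of control (log2 fold change -0.19, SE 0.08, limma adjusted p = 0.738). Flcn is annotated at chr11:59791408-59810016 on the minus strand of GRCm38.

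The transcription factors did not pass the test either. Tfe3 was at 1061, 1059 and 988 in the control libraries against 1041, 944 and 986, with a log2 fold change of -0.07 (SE 0.06). Tfeb was less abundant and stood at 425, 416 and 422 against 427, 403 and 468, at 102.7% of control. Mitf was at 1614, 1362 and 1590 against 1497, 1584 and 1246. All of these ranges overlapped, and Tfeb had the only positive value of the 6 regulators (median log2 fold change -0.07). Rragc, the RagC GTPase and the most abundant regulator per kilobase, was at 2253, 2344 and 2235 against 2275, 2260 and 2286, means that differed by less than the spread between replicates. Rragd was at 49.9, 33.9 and 55.6 against 36.6, 46.8 and 43.2, with all knockout values inside the range of the controls.

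Of the 5 membrane proteins, 2 had positive and 3 negative values. Cd63, a tetraspanin of late endosomes and lysosomes, was at 4560, 4949 and 4459 in the control libraries and 4780, 4650 and 5615 in the STING KO libraries. Only STING KO replicate 3 lay above all controls, and the log2 fold change was 0.10 (SE 0.07). A copy named Cd63-ps is annotated, and its reads may be shared with those of Cd63. Lamp1, the abundant glycoprotein that lines the lysosomal membrane, was at 8070, 8258 and 8026 against 8143, 8240 and 8022, 100.2% of control with an interval of 0.941 to 1.07 times the control level. Lamp2, its relative with roles in autophagy, was at 2489, 2268 and 2599 against 2414, 2484 and 2164. Scarb2, the receptor that carries glucocerebrosidase to lysosomes, was at 1274, 1294 and 1334 against 1258, 1329 and 1174. Mcoln1, the calcium channel TRPML1, was at 409, 412 and 383 against 380, 422 and 354. The knockout values of these last 3 genes spread more widely than the gap between the group means.

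Of the 8 tested proteases, 7 had positive values, with a median log2 fold change of 0.07 and none called. Ctsz, the carboxypeptidase cathepsin Z and the most abundant of them per kilobase, was at 4757, 5278 and 4597 in the control libraries and 4983, 4796 and 5757 in the STING KO libraries. As for Cd63, STING KO replicate 3 was the highest library. Ctsb, cathepsin B, was at 11924, 13092 and 11888 against 12143, 12120 and 12756, the largest normalized counts of any member. Ctsd, the aspartic protease cathepsin D, was at 2693, 2761 and 2502 against 2858, 2586 and 2886. Ctsl, cathepsin L, was at 3906, 4169 and 3981 against 4010, 4028 and 4045, with the 3 knockout values within the range of the controls. The low Ctsh, an aminopeptidase, had the largest value of the class at a log2 fold change of 0.16 (SE 0.14), from 78.9, 108 and 94.4 against 116, 102 and 95.4. Its error was nearly as large as its value. Ctsk, the collagen-degrading cathepsin K, was at 183, 220 and 181 against 206, 203 and 218. Tpp1, the tripeptidyl peptidase lost in a childhood ceroid lipofuscinosis, had the only negative value, at 98.2% of control.

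Of the 8 glycan hydrolases, 6 had positive values, with a median log2 fold change of 0.05, while 49.2% of all genes tested were positive. Measured from the control means, the median deviation of the class was 0.02, 0.01 and 0.12 in STING KO replicates 1 to 3, and that of the proteases 0.03, -0.01 and 0.09. In both classes replicate 3 was the farthest from the control mean among the STING KO libraries. The control libraries themselves were at 0.00, 0.04 and -0.04 for the glycan hydrolases and -0.04, 0.10 and -0.05 for the proteases. For the proteases, control replicate 2 thus lay farther from the control mean than any knockout library. Glb1, the acid beta-galactosidase, was at 693, 750 and 690 in the control libraries and 782, 740 and 861 in the STING KO libraries. STING KO replicate 2 lay below the highest control (111.7% of control, log2 fold change 0.16, SE 0.07, limma adjusted p = 0.738). Tmppe overlaps Glb1 on the same strand, so some reads may be shared. Naglu, the N-acetylglucosaminidase of heparan sulfate breakdown, was at 787, 812 and 754 against 815, 847 and 850, with every knockout library just above every control (106.7% of control, log2 fold change 0.09, SE 0.06). Gla, the alpha-galactosidase lost in Fabry disease, went the other way, with 958, 951 and 968 against 915, 922 and 933. Its groups did not overlap, yet the difference was small (96.3% of control, log2 fold change -0.05, SE 0.05). Gusb, beta-glucuronidase and the most abundant glycosidase per kilobase, was at 2724, 2626 and 2671 against 2672, 2567 and 2579. Hexa, Gaa, Galns and Neu1 stood at 101.8% to 104.3% of control with overlapping groups.

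The genes of lipid handling spanned 96.1% to 104.6% of control. Psap, the precursor of the saposins that present lipids to their hydrolases, was at 10181, 10717 and 10503 in the control libraries and 10284, 10578 and 11185 in the STING KO libraries. Lipa, the acid lipase of cholesteryl ester breakdown, was at 2585, 2764 and 2848 against 2926, 2940 and 2712. A pair of knockout libraries lay above all controls and the other lay within them. Npc2, which hands cholesterol to the membrane protein NPC1, was at 4712, 4915 and 4699 against 4774, 4853 and 5326. Ppt1, the palmitoyl thioesterase, was at 1961, 2054 and 2023 against 1964, 2027 and 2025, its groups overlapping fully. Asah1, acid ceramidase, was lowest of the class at 96.1% of control, and Smpd1, acid sphingomyelinase, stood at 101.5%.

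For the proton pump, the V0 sector had 3 positive and 2 negative values and the V1 sector 1 positive and 4 negative. In V0, Atp6v0e was at 1373, 1560 and 1403 in the control libraries and 1558, 1454 and 1735 in the STING KO libraries (log2 fold change 0.13, SE 0.08). Atp6v0b, a subunit of the proton-carrying ring, was at 1681, 1846 and 1684 against 1773, 1735 and 1939. In both, STING KO replicate 3 was highest and the other knockout libraries lay within the range of the controls. Atp6v0c, the main ring subunit, was at 438, 433 and 432 against 435, 342 and 448, where STING KO replicate 2 alone was low. Reads of its annotated copies Atp6v0c-ps1 and Atp6v0c-ps2 may be shared with it. Atp6v0a1 and Atp6v0d1 stood at 99.5% and 103.3% of control.

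In V1, Atp6v1e1, a subunit of the stalk that joins the sectors, had the largest positive value of all members. It was at 923, 1105 and 1003 in the control libraries and 1084, 1180 and 1214 in the STING KO libraries. Control replicate 2 was above STING KO replicate 1, so the groups overlapped. The control mean was 1010 ± 91.6 (SD, n = 3) and the STING KO mean 1159 ± 67.5 (SD, n = 3), or 114.7% of control (log2 fold change 0.20, SE 0.08, limma adjusted p = 0.738). The gene is annotated at chr6:120794305-120822793 on the minus strand of GRCm38. The catalytic subunit Atp6v1a was at 2664, 2324 and 2655 against 2467, 2674 and 2061, with STING KO replicate 3 lowest (log2 fold change -0.09, SE 0.09). Its partner Atp6v1b2 was at 2854, 2889 and 2837 against 2787, 2751 and 2808, with the groups apart and the mean at 97.3% of control. Atp6v1d and Atp6v1h were at 99.3% and 97.7% of control. Of the accessory subunits, Atp6ap1 was at 5831, 5862 and 5489 against 5922, 5717 and 5848. Atp6ap2, also known as the prorenin receptor, was at 1098, 1046 and 1081 against 997, 1124 and 974. Both pairs of groups overlapped.

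**Figure D2:**
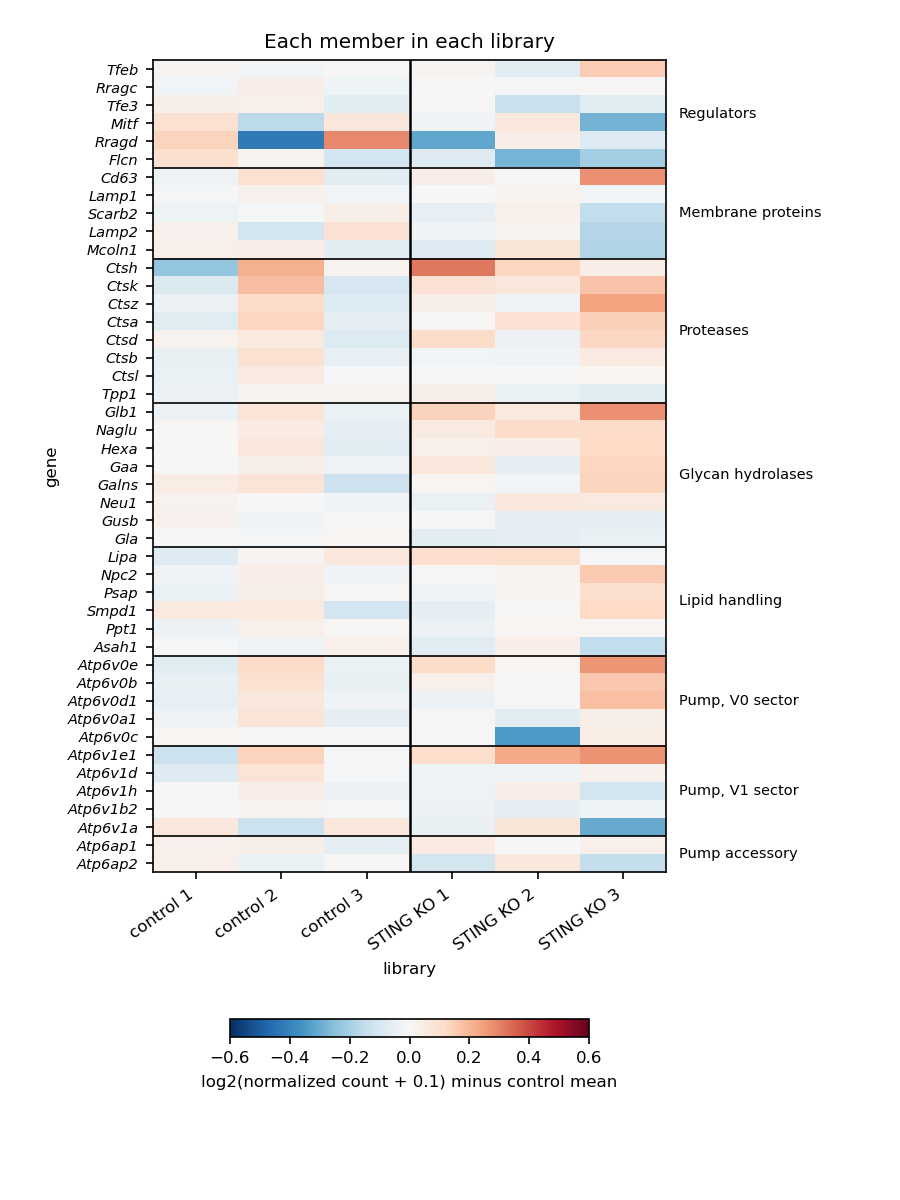
Each tested member's log2(normalized count + 0.1) minus its control mean (colour scale, red above and blue below), with the 6 libraries from left to right and genes from top to bottom by role. STING KO replicate 3 holds the highest value of 18 members, and both red and blue occur in the STING KO columns of every role.

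The subunit Atp6v1c1, annotated at chr15:38661933-38692446 on the plus strand of GRCm38, did not reach the minimum. The listed normalized counts were 2, 0.998 and 0 in control, against 0.99, 0 and 0 after knockout, and the authors' deposited table gives it no adjusted p. Its paralog Atp6v1c2 was listed at 0.998, 2 and 1.99 against 0, 0 and 1. V1 holds a C subunit beside the others, so both listed forms of a core subunit were near 0 in libraries where the other V1 members ran from 856 to 2889. Whether the counting placed reads of Atp6v1c1 elsewhere was not tested. No fold is given, and no difference between the groups was detectable at this depth.

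The other member under the minimum was Ctss, cathepsin S, a protease of antigen-presenting cells. It was at 3.99, 2.99 and 42.7 in the control libraries and 34.6, 2.99 and 1 in the STING KO libraries. The high libraries were 1 of each group, control replicate 3 and STING KO replicate 1, the pair highest in hepatocyte markers. None of the other 46 members had its highest values in that pair. Alb was at 243, 101 and 2780 against 2552, 268 and 113, and Lyz2, a lysozyme of myeloid cells, at 18, 16 and 97.4 against 71.3, 17.9 and 22.1. Of the 12 markers of macrophages and leukocytes, 8 were highest among controls in control replicate 3 and 10 highest among knockouts in STING KO replicate 1. Tyrobp, Adgre1 and Itgam were listed at 0 in the other control libraries. The summed level of the 12 was 1279 to 1428 in the control and 1339 to 1440 in the STING KO libraries, most of it from Cd68 and Cd53. Cd68 and Laptm5 are also in the list of lysosomal membrane proteins given further on. Their part in the Ctss values was not tested. Without that pair, 0 members were called among the 45.

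**Figure D3:**
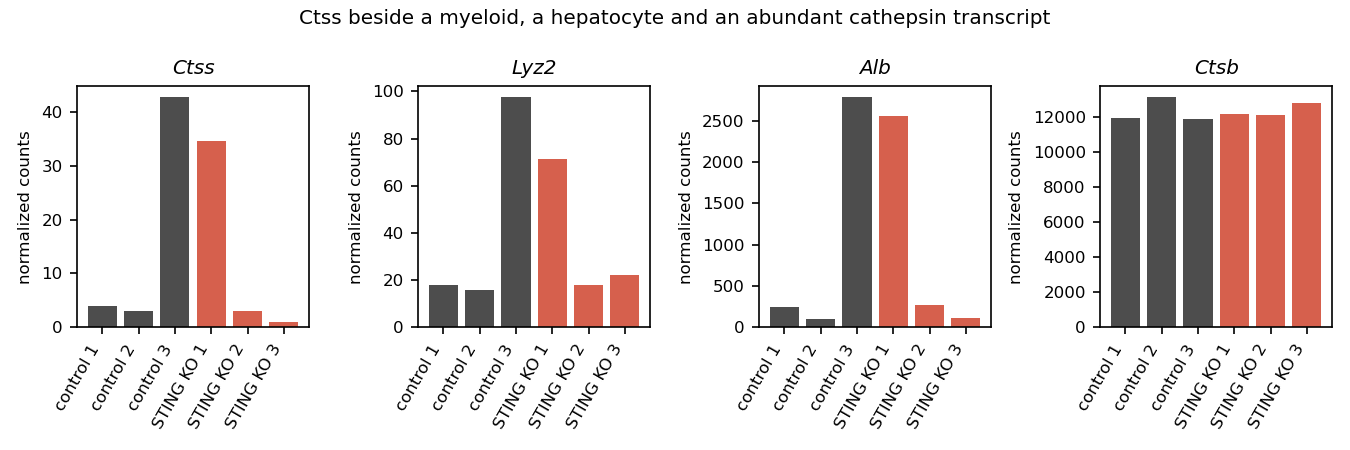
Normalized counts (bars, linear axes that start at 0) of Ctss, Lyz2, Alb and Ctsb in each of the 6 libraries, control in grey and STING KO in red. Ctss, Lyz2 and Alb are highest in control replicate 3 and STING KO replicate 1, while Ctsb runs from 11888 to 13092 with no peak in that pair.

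Levels between genes were compared per kilobase of the longest annotated protein-coding transcript. In the control libraries Cd63 (4198 normalized counts per kilobase ± 233, SD, n = 3) and Psap (3939 ± 102) lay highest, with overlapping ranges. Lamp1 (3642 ± 55.2) and Ctsz (3385 ± 247) came next, also with overlapping ranges, followed by Atp6ap1 (2616 ± 94.5) and Ctsb (2594 ± 144), whose ranges overlapped too. The same 6 genes led in STING KO, where Cd63 was at 4522 and Psap at 4020 per kilobase. The lowest tested members were Rragd at 9.20, Ctsh at 57.9 and Ctsk at 129 per kilobase in control. The order depends on the length used. With the union of exons, Cd63 was at 1264 per kilobase, below Psap, Ctsz, Lamp1, Ctsb and Atp6ap1, and 9 of the top 10 members were shared. Among the 5 V0 members, Atp6v0b at 1737 and Atp6v0d1 at 1162 per kilobase lay highest and Atp6v0c lowest at 367. With the union of exons Atp6v0d1 (1056) lay above Atp6v0b (847). Among the alternative forms of the large V0 subunit, Atp6v0a1 at 747 per kilobase stood above Tcirg1 at 279, Atp6v0a2 at 211 and Atp6v0a4 at 20.4.

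**Figure D4:**
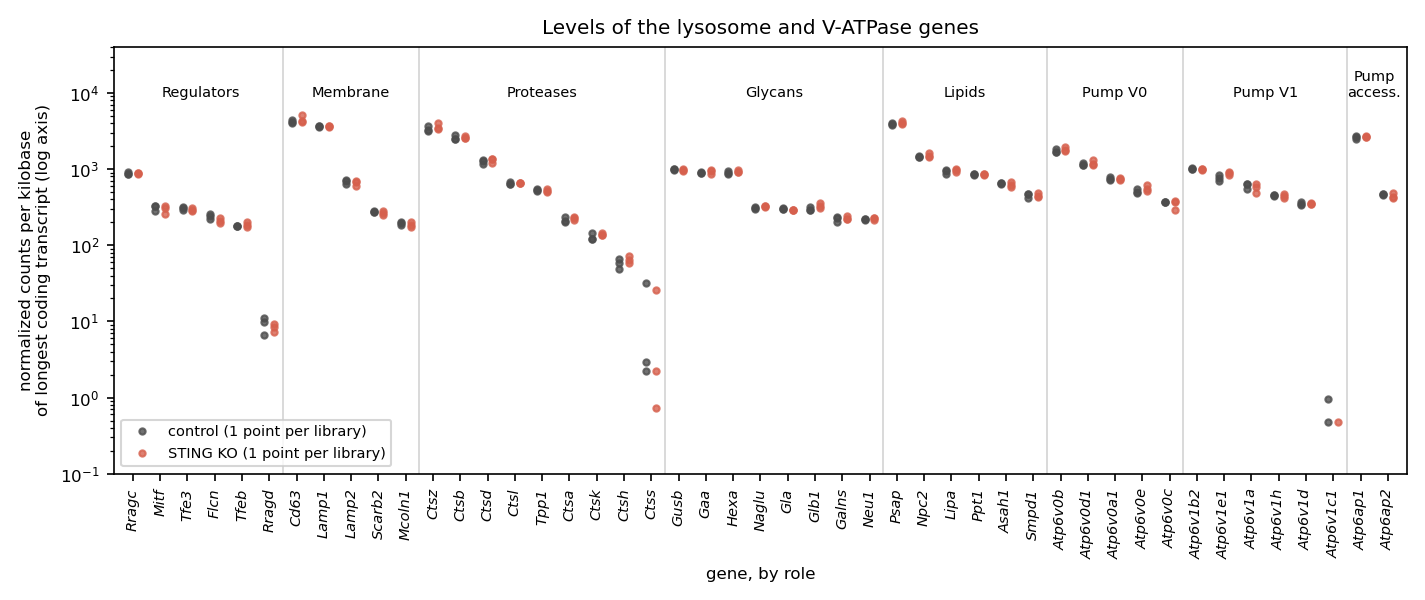
Normalized counts per kilobase of the longest annotated protein-coding transcript (log axis) for each member, with 1 point per library and colour for group. Cd63, Psap and Lamp1 are highest and Atp6v1c1 lowest, and the 3 libraries that list Atp6v1c1 at 0 are not drawn.

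The members with an E-box had values of both signs. The 7 with the TCACGTGA core had 4 positive and 3 negative log2 fold changes, with a median of 0.04 and a range of -0.09 to 0.13. All 14 with an E-box had 10 positive and 4 negative values (median 0.05), and the 25 tested members whose windows held none had 12 and 13 (median 0.00). None of either set was called. Lamp1, whose stretch above holds 4 E-boxes, had a log2 fold change of 0.00.

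Another 92 gene symbols of the pathway were taken from 4 lists, and 91 of these symbols, all but Tmem55b, were in the table. Of 76 tested, 0 were called by limma, against 0.258% of all genes tested. They had 30 positive and 46 negative values and a median log2 fold change of -0.03. The smallest limma adjusted p was 0.275. An unadjusted p under 0.05 was seen for 2 of the 76, against 6.37% of all genes tested. Of further pump subunits 4 of 7 were positive, of further hydrolases and sorting factors 17 of 33, of further lysosomal membrane proteins 3 of 20, and of the machinery that docks mTORC1 on the lysosome 6 of 16. The membrane list had a median log2 fold change of -0.07 against 0.00 over all genes, of which 49.2% were positive. Measured from the control means, its median deviation was -0.02, -0.04 and -0.09 in STING KO replicates 1 to 3, and so farthest from 0 in replicate 3.

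Slc17a5, the sialic acid exporter of the lysosome, had the smallest p of these. It was at 251, 248 and 262 in the control libraries and at 194, 207 and 201 in the STING KO libraries. Every knockout library lay below every control (79.1% of control, log2 fold change -0.34, SE 0.08, limma adjusted p = 0.275). Fnip2, a partner of folliculin, was at 929, 838 and 914 against 719, 821 and 583, again without overlap and lowest in STING KO replicate 3. It stood at 79.2% of control (log2 fold change -0.35, SE 0.11, limma adjusted p = 0.712). Its log2 fold change ran from -0.46 to -0.22 when 1 library was left out. Its relative Fnip1 was at 970, 771 and 1034 against 830, 973 and 645, with overlap. Abca2, a lipid transporter, stood at 92.6% of control and Atp6v0a4 at 88.7%, both without overlap, while Atp6v0a2 stood at 94.9% with overlap. Of the 76 tested, 4 were lower and 1 higher without overlap, 6.58% against 12.1% of all genes tested. The higher gene was Gm2a, at 107.8% of control. Laptm5 had the lowest log2 fold change of the 76, at -0.95 (SE 0.48, limma adjusted p = 0.738). It was at 35.9, 22.9 and 46.7 in the control libraries against 34.6, 18.9 and 8.03, with overlap. Its 95% interval, from 0.245 to 1.09 times the control level, extended past 2-fold. Gnptab, which makes the mannose 6-phosphate tag that sorts hydrolases, stood at 87.2%, Fuca1, a fucosidase, at 110.1%, and Lamtor5, a subunit of the Ragulator scaffold, at 110.0%, all with overlap.

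The deviations of single libraries were related to transcript length, more strongly in some libraries than in others. For each library, the log2 deviation of a gene from its mean over the 6 libraries was set against the log2 of its length. Over the 45 members, Pearson's r was 0.42, -0.35 and 0.50 in the control libraries and -0.24, 0.21 and -0.50 in the STING KO libraries. Over 12406 genes tested it had the same sign in each library, at 0.22, -0.11, 0.22, -0.05, 0.15 and -0.35. Without Rragd, a long transcript with few counts, r over the 44 others was 0.37, -0.27, 0.46, -0.12, 0.17 and -0.50. These are descriptions across genes that share a library and are not independent. STING KO replicate 3 was the highest library for 18 of the 45 members (40.0%, against 28.4% of all genes tested). It was the lowest for 10 (22.2%, against 29.9% of all genes tested). The shorter members, under 2593 bases, had a median deviation of 0.09 there and of -0.07 in control replicate 3. The longer members were at -0.01 and -9.29e-05 in the same libraries. Elsewhere the medians lay closer, at -0.02 (shorter) and -0.01 (longer) in control replicate 1 and 0.04 and 0.02 in control replicate 2. In STING KO replicates 1 and 2 the shorter members were at -0.001 and -0.002 and the longer at 4.06e-05 and -0.01. Without STING KO replicate 3, the log2 fold changes moved from 0.10 to 0.02 for Cd63, from 0.08 to 0.01 for Ctsz, from 0.13 to 0.06 for Atp6v0e and from -0.09 to 0.01 for Atp6v1a. Those of Flcn (-0.18), Atp6v1e1 (0.17) and Naglu (0.08) moved less. The part of length in these values was not tested.

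**Figure D5:**
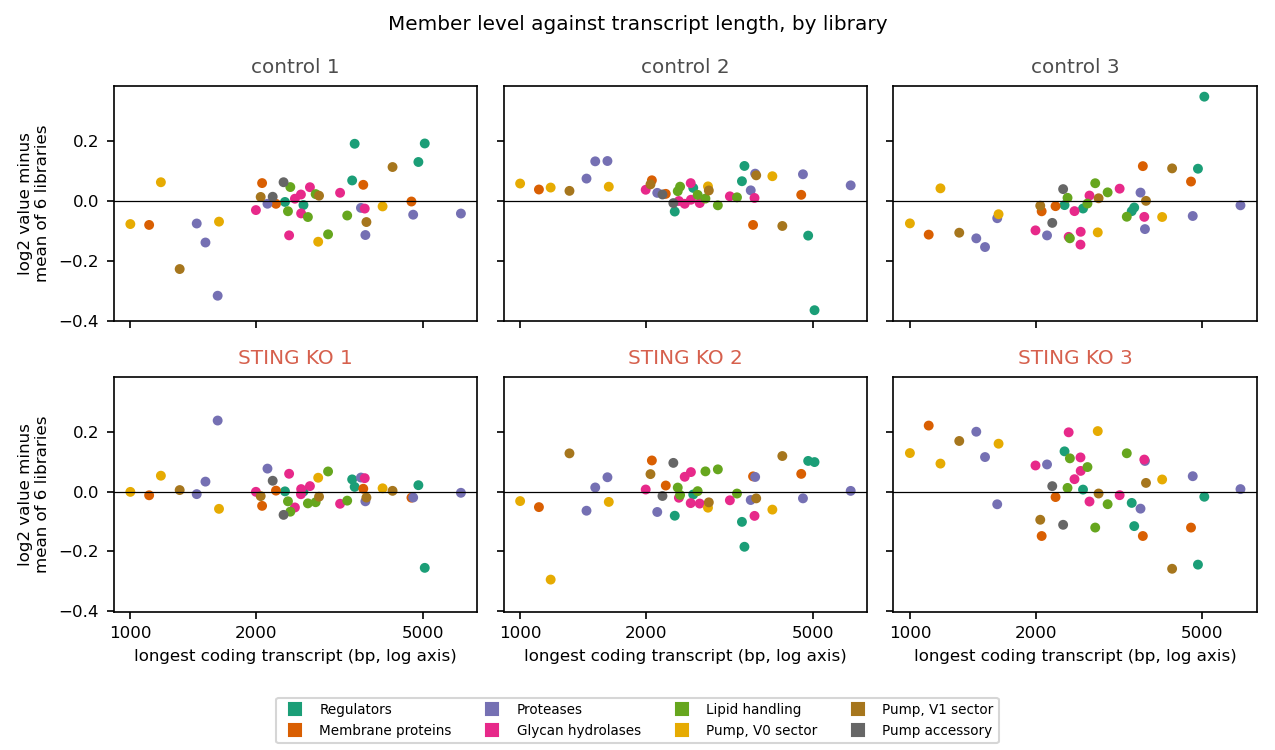
Log2 deviation of each tested member from its mean over the 6 libraries (vertical axis) against transcript length in bases (log axis), with 1 panel per library and colour for role. In STING KO replicate 3 shorter members lie above longer ones (r = -0.50), and in control replicate 3 the slope runs the other way (r = 0.50).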

How the data were processed

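Poly(A) RNA of L929 cells was sequenced in 3 control and 3 STING KO libraries, grouped by their titles. The authors deposited 1 gene table whose sample columns hold a signal, gene counts divided by a size factor per library, called normalized count. This was read from the values, which are whole multiples of 1 step per library within 0.01. Per the file headers it also holds the authors' log2 fold change, standard error and Wald score, and their p-value before and after adjustment. The submitters' processing notes name DESeq2 1.4.5, RSEM 1.2.12, HISAT2 2.0.4 and Bowtie2 2.2.5. What each tool did, the gene annotation and the strand handling were not given in the sources used here, and overlapping genes and near-identical copies may share reads.

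Of 27821 entries, 314 repeats of an identifier were left out. GENCODE M21 (GRCm38) holds 27480 of the identifiers and gave positions and lengths. The 12408 genes that reached 10 in 3 or more samples were tested in R 4.3.3 by limma 3.58.1 on log2(value + 0.1), with a trend of variance on mean and no covariate. Fold changes are on that scale, which understates the change of low genes. Calls are Benjamini-Hochberg adjusted p at or under 0.05 over all genes tested. The fit was tested on simulated data with planted changes of 1.5-fold or more and the same dispersion for all genes. That simulation does not bear on smaller changes. The normalized values took the test planned for such values. The library totals were nearly equal.

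The members and lists were chosen with earlier results of these data known. Values of all 6 libraries are given for Sting1, for the most abundant member per kilobase and the 2 smallest p-values of each role, and for members under the minimum. The 2 smallest p-values of each further list are named. Other members, Fnip1, Gm2a and Laptm5 were named after their values were seen. Alternatives were TMM and upper-quartile scaling, limma-voom, the authors' test, no filter, a pseudocount of 1 and a replicate block. Others left out each library, left out the pair highest in hepatocyte markers, or used another transcript length.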

Additional observations from a re-analysis of the deposited data

How the results depend on the processing

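The count of 0 called members was obtained under all 14 alternatives. Of 630 member values recomputed, 0 became a call, and the smallest adjusted p was 0.357. A change of sign was seen in 40 of them, spread over 19 members, and the other 26 kept their sign. The 32 genes called over the whole table were 18 with the replicate block and 12 without the pair highest in hepatocyte markers. When 1 library was left out they were 21 to 35. The lowest, 21, came without control replicate 1. All called genes were lower except 2 higher without control replicate 2, where the range over single libraries left out was 0 to 2, and 6 higher in the authors' deposited table. The fewer samples leave fewer degrees of freedom, and the cause of the other changes was not tested. Same-numbered replicates were not paired by the labels, and the correlations of their deviations were -0.183, -0.180 and -0.488. The replicate block changed no call among the members. The median level of the tested members per kilobase was 602 in control and 567 in STING KO. Both are the values of Atp6v1a, the middle gene, while the median log2 fold change of the members was 0.01. With the union of exons the median level was 389 and 394, because that length is longer. With 1 library left out it was 588 to 628 and 567 to 607. The count tests planned on whole reads were not run, since the deposited values were not accepted as recovered counts. Atp6v1c1 and Ctss did not reach the minimum and have no test, and Rragd, at 33.9 to 55.6 normalized counts, is the only member whose interval passes 1.5-fold.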
